A study of Homo sapiens with 4 samples.

Results

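The COMMD family comprises 10 human genes, COMMD1 to COMMD10, and all 10 were found by name among the 23615 genes measured in RNA co-purified with the deacylase SIRT7. RefSeq places them on 10 different chromosomes, so the members are not neighbours of one another. COMMD proteins share a C-terminal COMM domain through which they assemble into a ring. With the coiled-coil proteins CCDC22 and CCDC93 the ring makes up the CCC complex, and together with the Retriever trimer it forms Commander. This assembly works on endosomes, where it returns integrins, lipoprotein receptors and other membrane proteins to the cell surface. COMMD1, the best studied member, also takes part in copper balance and in switching off the transcription factor NF-kB.

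RNA pulled down on Flag-SIRT7 (RIP, RNA immunoprecipitation, 2 libraries) was set against total RNA (input, 2 libraries). Both kinds of library came from HEK293T, a human embryonic kidney line, stably overexpressing Flag-SIRT7, so the input cells carry the transgene too. The pull-down used a gel coupled to the anti-Flag antibody, and ribosomal RNA was removed from both kinds of RNA. No pull-down from cells without the tag was analysed here, so the RIP values include any RNA that the gel retains without SIRT7. Nothing in the labels tells separate cultures from repeat libraries of 1 culture, so every spread and p-value below measures differences between these libraries, which may be technical. Each library is a bulk pool, in which fewer cells with an mRNA and less mRNA per cell cannot be told apart.

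The RIP libraries held 25655455 and 25998032 fragments and the input libraries 18131602 and 17310753. SIRT7, the gene of the immunoprecipitated protein, averaged 43577 ± 534 CPM (fragments scaled to a common library size, with TMM factors) in RIP and 1165 ± 23.4 CPM in input (SD, n = 2 each), transgene and endogenous fragments together. Of 5 HEK293 markers all were tested, with the intermediate filament genes VIM, KRT18, NEFM and KRT8 well covered and PAX2 at 8 to 14 fragments a library. Of 12 markers of other cell types 4 passed the count filter. CD3E, HBB, MYH6 and INS had no fragment in any library. On library totals alone, the 5 HEK293 markers summed to 716 and 720 CPM in RIP, against 705 and 757 CPM in input, and the 12 others to 12.1 and 12.7 CPM in RIP, against 16.2 and 15.0 CPM in input.

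The members were chosen by their high values in RIP, so the family's RIP values and its differences from input describe the choice, and no p-value is given for them. All 10 genes passed the filter on low counts, with at least 242 fragments in every library. On 9 of 10 genes both RIP libraries lay above both input libraries, as did 43.7% of all 14555 genes tested, and COMMD2 had the opposite arrangement, as did 45.5%. In the fit over all genes (edgeR's quasi-likelihood test, adjusted p under 0.05) 9 members were on the higher side, against 38% of all genes, and 1 on the lower side, against 39.7%, so that all 10 were called in one direction or the other, against 77.7%. Nothing is read from these shares, since the choice of members used the same contrast. The family took 0.0719% and 0.0736% of all fragments in RIP, against 0.0455% and 0.0483% in input. Its members' median log2 fold change, RIP over input, was 1.41, where the median over all tested genes was -0.03.

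Levels were compared between genes on the deposited FPKM scale, which divides by transcript length. COMMD4 stood far above the others, with 403 and 421 FPKM in RIP, against 113 and 130 FPKM in input. COMMD6, which encodes the smallest family protein, was next and had 113 and 117 FPKM in RIP, against 34.8 and 39.9 FPKM in input. These genes held the top 2 ranks in both kinds of library, with no overlap between them or with the gene below. COMMD4 alone made up 48.9% ± 0.637 of the family's summed FPKM in RIP and 41.7% ± 0.822 in input (SD, n = 2 each). The 10 proteins are built into 1 ring together, yet their mRNA levels spanned 13.5 to 412 FPKM in the RIP means and 9.32 to 121 FPKM in the input means.

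**Figure D1:**
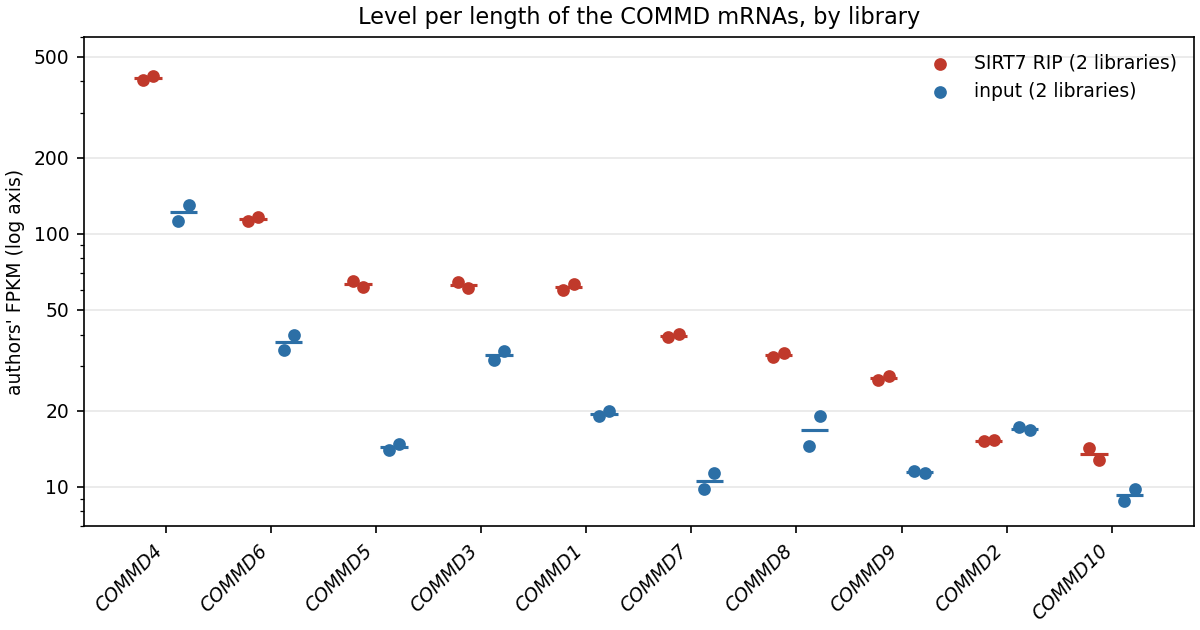
Deposited FPKM (log axis) of the 10 COMMD mRNAs, ordered by their mean in RIP. Points are libraries, 2 for SIRT7 RIP (red, left of each pair) and 2 for input (blue, right), and short lines are means. COMMD4 is at 403 to 421 FPKM in RIP, and COMMD2 is the gene whose RIP points lie below its input points.

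Below these, the order differed between the libraries. COMMD5, a gene first described as responsive to calcium and linked to blood pressure in rats, had 64.8 and 61.4 FPKM in RIP, against 13.97 and 14.81 FPKM in input. COMMD3 had 64.6 and 61.2 FPKM in RIP, against 31.6 and 34.6 FPKM in input. COMMD1 had 59.9 and 63.1 FPKM in RIP, against 19.1 and 19.9 FPKM in input. These 3 genes overlapped in RIP, at ranks 3 to 5, whereas in input COMMD3 had rank 3, COMMD1 rank 4 and COMMD5 rank 7, each clear of the other 2.

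COMMD7, whose protein is known to bind and restrain NF-kB, had 39.1 and 40.1 FPKM in RIP, against 9.78 and 11.3 FPKM in input. COMMD8, whose protein pairs with COMMD3 in chemokine receptor signalling of B cells in mice, had 32.5 and 33.9 FPKM in RIP, against 14.5 and 19.0 FPKM in input. Its input libraries were further apart, relative to their mean, than those of any other member in either group. COMMD9 had 26.4 and 27.5 FPKM in RIP, against 11.6 and 11.4 FPKM in input.

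COMMD2 and COMMD10 closed the order in RIP. COMMD2 had 15.1 and 15.3 FPKM in RIP, against 17.2 and 16.7 FPKM in input, and so had rank 9 in RIP but rank 5 in input. COMMD10 had 14.3 and 12.7 FPKM in RIP, against 8.81 and 9.82 FPKM in input, and was last in both. In input, COMMD2 and COMMD8, COMMD8 and COMMD5, and COMMD7 and COMMD10 were neighbours whose libraries overlapped. Dividing TMM-scaled CPM by length in place of FPKM left all 10 ranks as they were in both groups. That length was itself derived from the FPKM values, so the order could hardly change and this is no separate check of it.

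Set against input on the count scale, where TMM factors equalise the bulk of genes between libraries, the members fell along a wide range. COMMD5 was at the top with 85.4 and 81.2 CPM in RIP, against 18.5 and 19.8 CPM in input, a 4.35-fold difference (log2 fold change 2.12, SE 0.0839). COMMD7 followed with 71.4 and 73.3 CPM in RIP, against 18.3 and 20.8 CPM in input (3.71-fold, log2 1.89, SE 0.088). Their log2 fold changes lay at percentiles 97.82 and 96.25 of all tested genes. COMMD4 (3.35-fold, log2 1.75, SE 0.0768), COMMD1 (3.12-fold, log2 1.64, SE 0.0982) and COMMD6 (3.04-fold, log2 1.60, SE 0.0768) lay close together. COMMD9 was at 2.32-fold (log2 1.21, SE 0.077).

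The 4 other members were below the 2-fold line that 6 members passed, as did 17.5% of all genes. COMMD8 was at 1.96-fold (log2 0.97, SE 0.106) and COMMD3 at 1.88-fold (log2 0.91, SE 0.085). COMMD10, with the fewest fragments in RIP (371 and 336, against 277 and 285 in input), was at 1.43-fold (log2 0.52, SE 0.113). COMMD2 had 56.7 and 57.3 CPM in RIP, against 66.1 and 63.0 CPM in input (log2 fold change -0.18, SE 0.0744). Its place on the lower side of the threshold was lost without the first RIP library, without the second RIP library and without the first input library, which left no member there. The log2 fold change of COMMD8 was 1.18 without the second input library and 0.80 without the first.

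**Figure D2:**
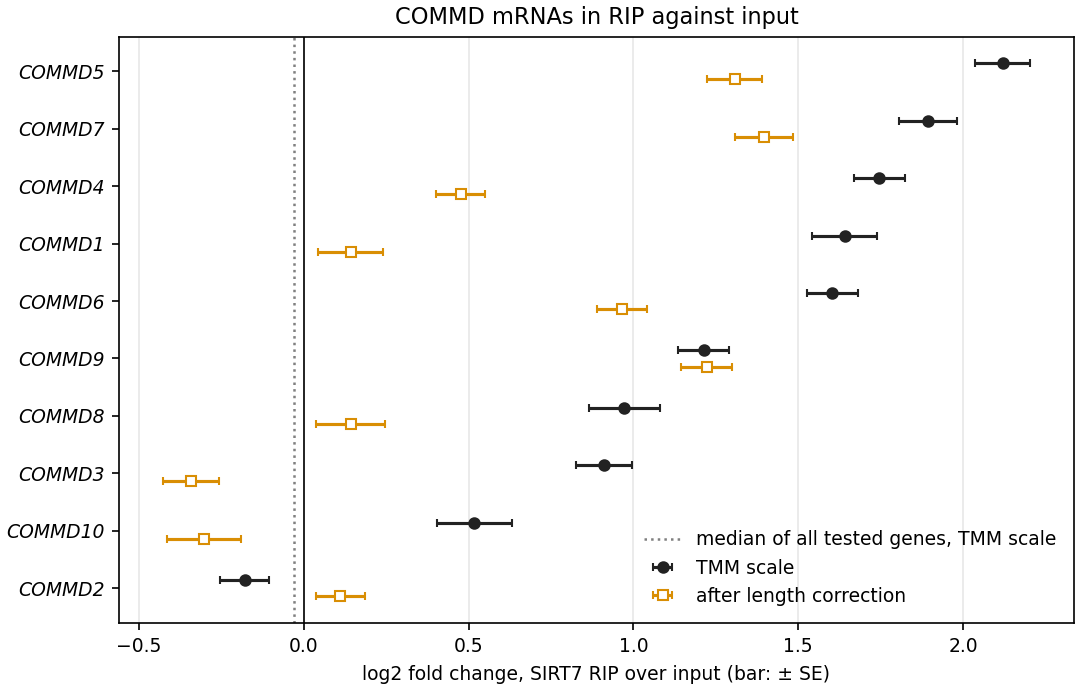
Log2 fold change of each COMMD mRNA, SIRT7 RIP over input, on the TMM scale (black circles) and after length correction (open squares). Bars are ± SE of the fit over 2 RIP and 2 input libraries, and the dotted line is the median of all tested genes on the TMM scale (-0.03). COMMD9 keeps its place after the correction (1.22), while COMMD3 and COMMD10 move below 0.

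Transcript length ran with the fold change over all genes, short mRNAs being high in RIP, so each member was placed on that trend. Effective length was computed by dividing a gene's scaled fragments by its FPKM, with the median tested gene set to 1. The family's median length was 0.457 on this scale, and 8 of 10 members were shorter than the median gene. COMMD1 was the shortest (0.191), then COMMD4 (0.27) and COMMD3 (0.276), and COMMD9 (1.03) and COMMD2 (1.30) were the longest. Within the family length and fold change were weakly related (Spearman rho = -0.188 over 10 genes that share 4 libraries, and 0.117 over 9 genes without COMMD2). Choosing the members by this contrast can narrow their range, so nothing on the trend over all genes is read from these values.

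Genes of one length differed most plainly in a set of 3. COMMD8, COMMD10 and COMMD5 had lengths of 0.45, 0.455 and 0.459, and log2 fold changes of 0.97, 0.52 and 2.12. All tested genes of the second length decile, where these 3 fall, had a median of 0.75 with quartiles of 0.242 and 1.27. COMMD5 therefore lay above the upper quartile, COMMD8 and COMMD10 inside the quartiles. COMMD4 and COMMD3 were a second pair of near-equal length, with log2 fold changes of 1.75 and 0.91, in a decile whose median was 1.32. COMMD9, of about median length, was at 1.21 in a decile with a median of -0.12 and an upper quartile of 0.403.

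**Figure D3:**
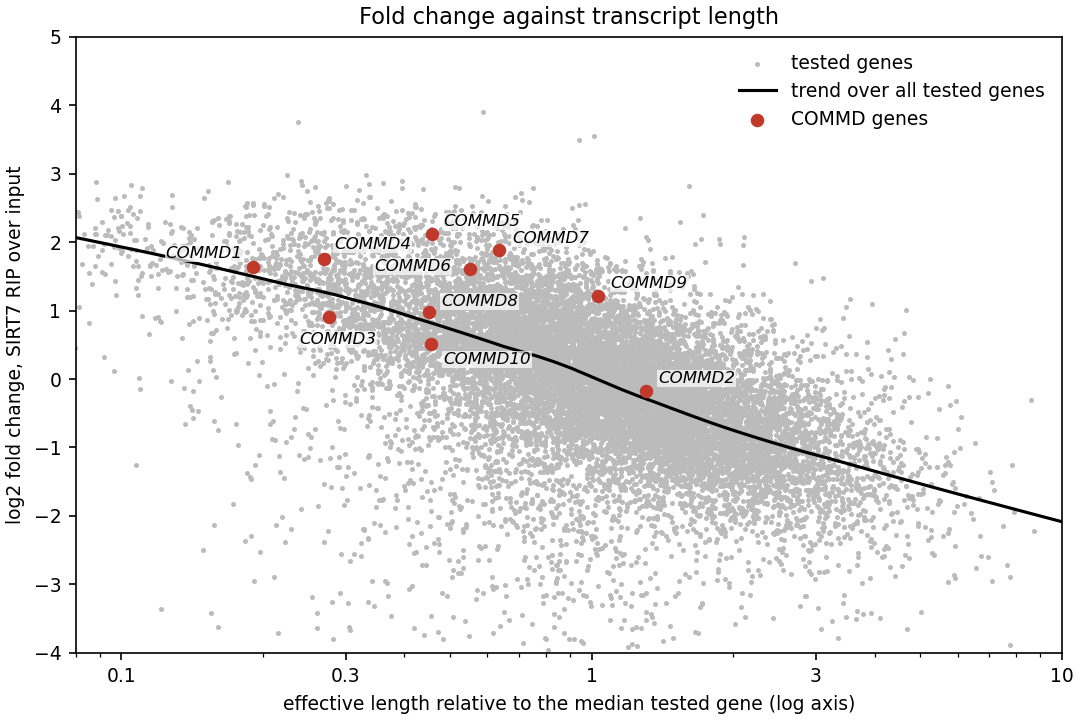
Log2 fold change, SIRT7 RIP over input, against effective length relative to the median tested gene (log axis). Grey points are tested genes (89 lie outside the axes), the line is the trend over all tested genes and red points are the 10 COMMD genes. COMMD5, COMMD7, COMMD6, COMMD9 and COMMD4 sit above the line, COMMD1, COMMD8 and COMMD2 near it, and COMMD3 and COMMD10 below it.

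When that trend was taken out with offsets in the same fit, the family's median was 0.31 and that of all genes -0.03. COMMD7 was then at 1.39, COMMD5 at 1.31, COMMD9 at 1.22, COMMD6 at 0.97 and COMMD4 at 0.48 on the log2 scale, and these 5 members were past the threshold on the higher side, against 33.6% of all genes. COMMD1 and COMMD8 at 0.14 each and COMMD2 at 0.11 were past neither side. COMMD3 and COMMD10, at -0.34 and -0.30, were past it on the lower side, against 34.6% of all genes. With a least-squares trend in place of the robust one, a choice made after seeing the data, 7 members were higher (38.6% of all genes) and none lower (29.5%). COMMD1 (0.43) and COMMD8 (0.34) were the members gained, while COMMD3 (-0.07) and COMMD10 (-0.10) were past neither side.

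The scale also sets where zero lies. When only library totals were used for scaling, the median of all genes was -0.76, and the calls over all genes changed to 2479 higher and 9539 lower, against 5531 higher and 5783 lower with TMM. On that scale 7 members were higher (17% of all genes), COMMD2 was lower (65.5%), and COMMD3 (0.18) and COMMD10 (-0.21) were past neither side. The family's median was 0.68. Its distance from the median of all genes was 1.44 on both scales, which follows from the rescaling, since that shifts all genes by nearly the same amount.

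COMMD3 lies directly upstream of the Polycomb gene BMI1, and the annotation also holds a read-through model, COMMD3-BMI1, that shares exons with both. COMMD3 had 1019 and 980 fragments in RIP, against 602 and 607 in input. The read-through had 21.2 and 0.01 fragments in RIP, against 52.1 and 33.9 in input. The authors' estimation split shared fragments between these models, so the 3 of 40 family values that are not whole numbers are all COMMD3's. Adding the read-through to COMMD3, a choice made after seeing the data, gave a log2 fold change of 0.83 in place of 0.91. BMI1, named after its values were seen, had 1738 and 1962 fragments in RIP, against 2843 and 3051 in input. It fell by 0.49 on the log2 scale (SE 0.082, edgeR adjusted p = 5.35e-05) and was at -0.29 after length correction. RefSeq also lists 2 pseudogenes of COMMD4 and 1 each of COMMD5 and COMMD6. How fragments with several positions were placed is not given in the sources used here, so the levels of these 3 genes are less certain.

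The sequences upstream of the members were not used in choosing them. RefSeq promoter windows (GRCh38.p14) were held for 9 of 10 members, all but COMMD5, and the 250 bases before each annotated start were searched on both strands for 3 motifs. Several starts were annotated for 3 members (COMMD1, COMMD6 and COMMD10), which gave 14 windows in all. CACGTG, the palindromic E-box read by basic helix-loop-helix factors such as USF, MYC and TFEB, was in a window of COMMD3, COMMD4, COMMD8, COMMD9 and COMMD10, or 5 of 9 members (55.6%), and of 7.73% of all 27305 genes with a window. In COMMD10 it precedes a start inside the gene. With only the outermost start of each gene, a choice made after seeing the data, it was in 4 of 9 members (44.4%) and in 6.46% of all genes. COMMD1, COMMD2, COMMD6 and COMMD7 had none in their windows. CCGGAAG, an ETS factor core, was in 2 of 9 (22.2%, against 10.2% of all genes), and GGGCGG, an Sp1 core, in 7 of 9 (77.8%, against 46.2%). At the outermost start CCGGAAG was again in 2 of 9 (against 8.78%) and GGGCGG in 5 of 9 (55.6%, against 42.2%). These motifs were picked after the sequences had been read, and a match describes the letters, not a bound site. The matches at the outermost starts are shown, 5′ to 3′ on the gene's strand, with 30 bases on either side or as far as the start where that is nearer, and with the E-box in capitals:
COMMD3, chr10:22316350-22316387, plus strand: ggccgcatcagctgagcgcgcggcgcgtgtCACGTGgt
COMMD4, chr15:75335988-75336053, plus strand: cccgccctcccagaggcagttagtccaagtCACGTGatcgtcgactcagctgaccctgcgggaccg
COMMD8, chr4:47463703-47463754, minus strand: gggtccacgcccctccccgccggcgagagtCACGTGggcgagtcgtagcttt
COMMD9, chr11:36289425-36289490, minus strand: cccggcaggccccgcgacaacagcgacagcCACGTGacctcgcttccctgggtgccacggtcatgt

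The E-box begins 8 bases before the annotated start in COMMD3, 22 in COMMD8, 36 in COMMD9 and 45 in COMMD4, whose printed sequence stops short of the start. The log2 fold changes of these 4 genes were 0.91 for COMMD3, 0.97 for COMMD8, 1.21 for COMMD9 and 1.75 for COMMD4. The searched members without the E-box at the outermost start ran from -0.18 (COMMD2) to 1.89 (COMMD7), a range that holds all 4.

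Genes of the proteins that work with the COMMD ring played no part in choosing the family. Their lists were, however, drawn up with earlier results of these data known. Of 25 tested genes of the CCC partners, Retriever, retromer, the WASH complex and endosomal sorting nexins, 7 were higher and 10 lower in RIP (edgeR adjusted p under 0.05, against 38% and 39.7% of all genes). Their median log2 fold change was -0.04, near that of all genes, where the COMMD median, in a family chosen by this contrast, was 1.41. After length correction these 2 medians were -0.27 and 0.31. Library totals gave 3 higher and 18 lower, against 17% and 65.5% of all genes. Length correction gave 6 higher and 14 lower, against 33.6% and 34.6%.

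The direct partners of the ring split. CCDC22, the coiled-coil subunit that clamps the ring, had 48.3 and 54.4 CPM in RIP, against 28.9 and 28.5 CPM in input. It rose 1.79-fold (edgeR adjusted p = 2.698e-07), and 0.53 on the log2 scale remained after length correction. With library totals its call was lost (log2 fold change 0.11, adjusted p = 0.2553). Its partner CCDC93, with a transcript 2.50 times the median length, had 13.9 and 16.6 CPM in RIP, against 50.1 and 45.3 CPM in input. It fell by 1.65 on the log2 scale (SE 0.103, edgeR adjusted p = 6.413e-10), and by 0.69 after length correction. FAM45A (DENND10), a further subunit whose gene has a near copy in the genome, did not pass the test (log2 fold change -0.18, adjusted p = 0.1617), but did at -0.55 after length correction and at -0.91 with library totals.

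In Retriever, VPS29 had 87.1 and 84.2 CPM in RIP, against 48.4 and 51.5 CPM in input, and rose 1.72-fold (edgeR adjusted p = 1.053e-07). It has a short mRNA (0.334 of the median length), and its value turned to -0.32 after length correction. With library totals it was at 0.05 and not called. C16orf62 (VPS35L), the long scaffold subunit, fell by 0.24 on the log2 scale (adjusted p = 0.02752), a call that was lost without either RIP library (adjusted p = 0.1443 and 0.06528) and without the first input library (0.1721), and it was at 0.11 after length correction. DSCR3 (VPS26C) was at 0.02 (adjusted p = 0.7849), and at -0.71 and called with library totals.

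SNX17, the adaptor that hands cargo to Commander, had 240 and 254 CPM in RIP, against 102 and 111 CPM in input. It rose 2.32-fold (edgeR adjusted p = 3.679e-10) and stood at 0.97 log2 units once length was corrected for. The fold change of COMMD9 was also 2.32. SNX27, the adaptor of the related retromer route, fell by 1.19 (adjusted p = 7.366e-10) and by 0.21 after length correction. VPS29 was counted under Retriever alone and is not among the 3 genes listed for retromer. Of these 3, VPS26B rose 1.48-fold (-0.16 with library totals, edgeR adjusted p = 0.05294) and VPS26A fell by 0.34, both past the test. WASH complex genes had 2 of 9 higher and 5 lower, against 38% and 39.7% of all genes. The small subunit gene CCDC53 (WASHC3) was up 2.12-fold (-0.20 after length correction, edgeR adjusted p = 0.09974). FAM21C (WASHC2C) was down by 1.78 on the log2 scale. FAM21C has a near copy, FAM21A, so the split of fragments between the 2 is uncertain.

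**Figure D4:**
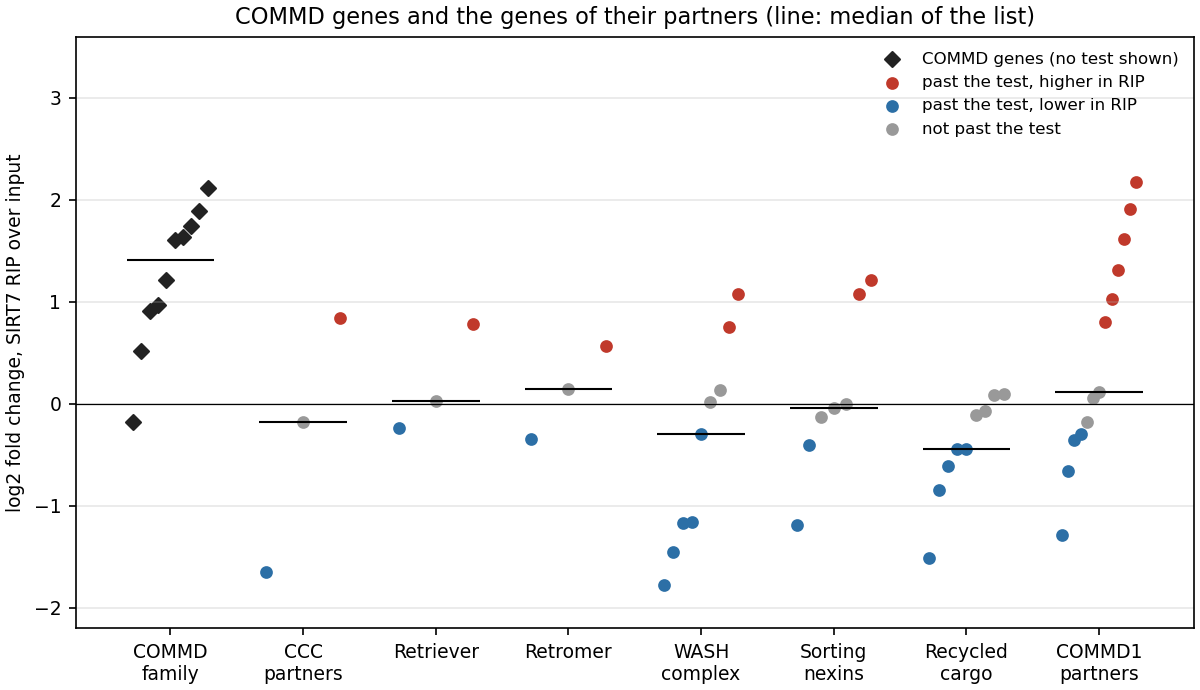
Log2 fold change, SIRT7 RIP over input, of each tested gene in the COMMD family (diamonds, no test shown) and in 7 lists of partner genes. Red, blue and grey points are genes higher, lower or past neither side at an edgeR adjusted p of 0.05, and lines are medians of the lists. The COMMD median, in a family chosen by this contrast, is 1.41, and the medians of the other lists lie between -0.44 and 0.14. After length correction (not drawn) the COMMD median is 0.31. Those of the other lists then lie between -0.546 (CCC partners) and 0.525 (recycled cargo).

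Genes for proteins returned to the surface by this route, and for proteins known to work with COMMD1, were counted in the same way. Of 9 cargo genes (integrins, lipoprotein receptors, APP and the copper pumps ATP7A and ATP7B) 5 were lower and 4 past neither side. The lower side held 39.7% of all genes. LRP8 was the furthest at -1.51 on the log2 scale (edgeR adjusted p = 5.417e-09) and at -0.49 after length correction. These mRNAs are long (median 1.89 times the median gene). After length correction 6 were higher and 2 lower, against 33.6% and 34.6% of all genes. Of 13 tested genes of COMMD1's partners in ubiquitin ligases, NF-kB control and copper handling, 6 were higher and 4 lower, against 38% and 39.7% of all genes. TCEB2, the elongin B gene, had 481 and 463 CPM in RIP, against 94.8 and 114 CPM in input, a 4.52-fold rise (edgeR adjusted p = 4.355e-12). Its mRNA is short (0.197 of the median length), and its log2 fold change of 2.18 was 0.70 after length correction. XIAP, an inhibitor of caspases that ubiquitinates COMMD1, fell by 1.29 on the log2 scale (adjusted p = 3.273e-10), and was at -0.16 and not called after length correction (adjusted p = 0.06959).

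The genes most like the family in their levels were found by the distance between their 4 log2 CPM values and the family's median in each library. The nearest 5 outside the family were BLOC1S4 (distance 0.08), SUV420H2 (0.097), TPRKB (0.117), ALKBH4 (0.128) and ZNF205 (0.136). BLOC1S4 codes for a subunit of BLOC-1, a complex of endosome and lysosome biogenesis, SUV420H2 for a histone H4 methyltransferase and TPRKB for a subunit of the tRNA-modifying KEOPS complex. Their lengths ran from 0.205 (TPRKB) to 0.785 (SUV420H2) of the median gene. After length correction TPRKB was at -0.02, while SUV420H2 stood at 1.06.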

How the data were processed

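The submitters' processing notes name build hg19 and, with no order or role, TopHat2 2.0.13, Cuffdiff 2.2.1, Bowtie2 2.2.6 and cutadapt 1.5. For annotation and strand setting, the sources used here give nothing. The deposited estimated counts are fragments per gene before scaling (97.94% whole) and were rounded to whole numbers. The deposited scaled signal divides these by 1 factor per library. The deposited FPKM values divide the scaled fragments by transcript length and library size. The table numbers replicates from 0, and library 0 was taken as replicate 1 of the labels.

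Genes passing filterByExpr (minimum count 10, total 15) entered edgeR 4.0.16 under R 4.3.3 (TMM, glmQLFit, glmQLFTest, group as the only term, Benjamini-Hochberg adjustment at 0.05), after the same code was tested on simulated data. SE is the log2 fold change over the square root of F. Length correction used offsets from a robust loess (span 0.3) of log2 fold change on log2 length. The alternatives were library totals, DESeq2 1.42.0 and its size factors, no count filter, limma 3.58.1 on log2(FPKM + 1) and log2(FPKM + 0.1), a replicate block and each library left out. A chi-square of 3.4 per gene between the RIP libraries and 6.17 between the input libraries exceeded sampling noise, so none was treated as a library deposited in duplicate. This does not show that the cultures were separate. Depth limits counting error alone, since fragments carry no molecular identifiers.

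The family and all lists were chosen with earlier results of these data known. The genes named are the 10 members, all CCC partner and Retriever genes, the largest rise and largest fall called in each other list among genes averaging 50 counts or more, SIRT7, and the 5 genes nearest in pattern.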

Additional observations from a re-analysis of the deposited data

How the results depend on the processing

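The members were chosen in this contrast, so their counts describe the choice in every fit. In the main fit 9 were higher, against 38% of all genes. The count was 7 with library totals (17% of all genes), 5 with length offsets (33.6%) and 7 with the added least-squares length offsets (38.6%). Every other alternative on all 4 libraries gave 9. The count of lower members was 1 in the main fit (39.7% of all genes) and 2 with length offsets (34.6%). It was 0 with the least-squares length offsets (29.5%), DESeq2's size factors, the DESeq2 test, no count filter and both limma fits. Of all genes, 5718 were lower with DESeq2's size factors, 5018 with the DESeq2 test and 5797 with no count filter. The limma fits had 5436 lower on log2(FPKM + 1) and 5473 on log2(FPKM + 0.1). The family's median log2 fold change of 1.408 was 0.678 with library totals, 0.309 with length offsets and 0.586 with least-squares offsets, and 1.374 to 1.443 with a library left out. Library totals gave 3 higher and 18 lower of the Commander, retromer and WASH genes (7 and 10 in the report), 16 lower of the cargo and COMMD1 partner genes (6 higher and 9 lower in the report), and 2479 higher and 9539 lower of all genes. Of the 22 tested cargo and COMMD1 partner genes, length offsets gave 12 higher and 3 lower, against 33.6% and 34.6% of all genes. The least-squares ones gave 14 and 3, against 38.6% and 29.5%. Signs turned with length offsets for COMMD2 (0.111), COMMD3 (-0.343), COMMD10 (-0.303), C16orf62 (0.111), VPS29 (-0.324), CCDC53 (-0.200) and TPRKB (-0.022). With the least-squares offsets they turned for COMMD2 (0.169), COMMD3 (-0.073), COMMD10 (-0.104), C16orf62 (0.159) and VPS29 (-0.075). With library totals they turned for COMMD10 (-0.213), DSCR3 (-0.706) and VPS26B (-0.163), and with a library left out DSCR3 ranged from -0.011 (without the first RIP library) to 0.072. The cause was not tested.

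RIP and input libraries with the same replicate number showed little shared deviation (correlation 0.041 over 14555 genes). This does not settle whether they were paired. With the number as a block, 9 members were higher and 1 lower, the family's median was 1.409, and 5580 of all genes were higher and 5861 lower. With a library left out, 5140 to 5525 of all genes were higher and 5229 to 5579 lower. A group left with 1 library is assumed there to vary like the other. With 2 libraries a group, an exact permutation test cannot go below p = 0.33, so single values rest on the fit over all genes.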
